A study of Mus musculus with 24 samples.

Results

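This account covers 8728 stretches of the mouse genome that carried H3K4me1 in lung endothelial cells lacking Dnmt3a, had no H3K4me1 peak in wild-type cells, and had no H3K27ac peak in the knockout cells. They are called new primed regions here. They were chosen from 59665 merged H3K4me1 regions, so the values that define them were used for the choice and are given only as a description. Endothelial cells sorted by flow cytometry from lungs of Dnmt3a knockout (KO) and wild-type (WT) mice were profiled by ACT-seq, in which an antibody steers a Tn5 transposase to a histone mark and the cut sites are sequenced. There were 24 samples by the labels, in 8 groups of 3 formed by genotype and by the marks H3K4me1, H3K27ac, H3K4me3 and H3K27me3. The groups used here are KO and WT cells of lung tissue for each of these 4 marks. The sources used here do not give the driver or extent of the Dnmt3a deletion, the age of the mice or any pooling of animals.

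Each group was represented by 1 deposited peak list on chromosomes 1 to 19, with the start, end and width of each peak and without heights or values per sample. Sequencing depth is therefore unknown, no spread between replicates entered, and no difference between the genotypes was tested. Intervals below are exact Clopper-Pearson intervals at 95%, which cover counting error only and treat regions as independent. A region absent from a list may have been below the calling threshold rather than unmarked. H3K4me1 was listed at 48458 peaks in KO and 49363 in WT, with wider peaks in KO (median 461 bp and 25.001 Mb covered, against 384 bp and 20.9 Mb), while H3K27ac was listed at 44484 peaks in KO and 81112 in WT. Of 10 endothelial marker genes, 8 had both H3K4me3 and H3K27ac at a gene end in each genotype, the exceptions being Erg and Egfl7. None of 8 leukocyte markers had that pair of marks in either genotype. The epithelial list gave 1 of 8 in WT and 3 of 8 in KO, and the mesenchymal and mural list gave 0 of 8 in WT and 1 of 8 in KO. The part of these other cell types in the results was not tested.

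As background, H3K4me1 is placed mainly by the methyltransferases Kmt2c and Kmt2d at enhancers and on the flanks of promoters. Acetylation of H3K27 by Ep300 and Crebbp marks the enhancers that are active, and a distal region with H3K4me1 but without H3K27ac is commonly called primed. Dnmt3a adds methyl groups to the cytosine of CpG dinucleotides, and DNA methylation is generally low at enhancers in use. In endothelium, distal enhancers bound by ETS, AP-1, SOX and other factors carry much of the cell type's gene regulation.

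A few new primed regions can be read base by base, because they cover windows around annotated transcript starts for which RefSeq sequence of GRCm38.p6 (mm10) was at hand. Of the 8728 regions, 85 (0.974%, interval 0.779 to 1.20) covered at least part of such a window, which runs from 250 bases before to 50 bases after a start, and 29 of them met a protein-coding and 56 a long non-coding RNA gene. The protein-coding starts are alternative starts inside longer gene models, since all regions lie over 1000 bp from the annotated ends of every protein-coding gene. Shown are 4 examples in which the known sequence spans either the whole region or the whole window. They were chosen after their values were seen, and other sequences met this condition too. Among those not shown, Lims1, a whole region of 202 bp, holds 1 CpG with 36.1% G or C. The window of Tbc1d24 holds 4 CpG in 300 bases. The 4 examples are thus no measure of how much CpG the regions hold. The sequences shown are printed 5′ to 3′ on the strand of the gene, with each CpG, the site of methylation, in capitals.
Tspan9: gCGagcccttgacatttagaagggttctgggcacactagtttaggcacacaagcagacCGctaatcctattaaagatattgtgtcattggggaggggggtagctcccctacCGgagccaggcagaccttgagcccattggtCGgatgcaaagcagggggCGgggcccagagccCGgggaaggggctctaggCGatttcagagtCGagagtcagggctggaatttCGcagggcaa
Frmd4b: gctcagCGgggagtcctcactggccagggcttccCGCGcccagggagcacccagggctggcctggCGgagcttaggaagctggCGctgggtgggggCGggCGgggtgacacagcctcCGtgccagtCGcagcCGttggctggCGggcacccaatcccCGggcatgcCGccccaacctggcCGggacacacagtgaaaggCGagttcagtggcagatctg
Herc3: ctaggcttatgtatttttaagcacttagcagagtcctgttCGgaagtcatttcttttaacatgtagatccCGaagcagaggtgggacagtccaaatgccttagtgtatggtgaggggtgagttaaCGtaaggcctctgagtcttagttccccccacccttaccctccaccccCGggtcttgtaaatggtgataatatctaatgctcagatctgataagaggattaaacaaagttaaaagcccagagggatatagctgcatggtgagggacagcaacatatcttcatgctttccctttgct
Cyth1: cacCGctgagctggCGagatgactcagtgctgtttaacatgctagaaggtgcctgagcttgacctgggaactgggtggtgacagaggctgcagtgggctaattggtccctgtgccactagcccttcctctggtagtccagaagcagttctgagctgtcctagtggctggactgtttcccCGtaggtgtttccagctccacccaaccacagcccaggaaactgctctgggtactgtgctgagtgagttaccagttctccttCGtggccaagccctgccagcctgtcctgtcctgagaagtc

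The Tspan9 sequence is a whole new primed region of 234 bp at chr6:128035033-128035266 on the minus strand, inside the gene of a tetraspanin, and holds 9 CpG. The Frmd4b sequence is also a whole region, 219 bp at chr6:97487847-97488065 on the minus strand, with 15 CpG and 71.2% G or C. In contrast, the Herc3 window, at chr6:58833450-58833749 on the plus strand, holds 4 CpG in 300 bases and lies within a region of 819 bp in the gene of a HECT-type ubiquitin ligase. The window of Cyth1, the gene of an exchange factor for Arf GTPases, also holds 4 CpG and lies at chr11:118212682-118212981 on the minus strand within a region of 469 bp. None of these 4 regions met a WT H3K27ac peak.

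Start windows on new primed regions were poor in CpG in most cases, as were those on the other classes of distal H3K4me1 region. The 98 windows that met new primed regions had a median of 5 CpG, and 14.3% had at least 10, whereas the 31365 windows of the whole table had a median of 7 with 43.9% at 10 or more. Windows on lost primed regions, which carried H3K4me1 in WT only and no WT H3K27ac, had a median of 5 with 19.4% at 10 or more. Windows on regions active in both genotypes, with both marks in both, had a median of 4 with 6.93% at 10 or more. The whole table includes the promoters at gene ends, which the selection leaves out by distance and by H3K4me3, so its higher CpG counts are no measure of what sets new primed regions apart. The CpG content of the regions outside these windows was not analysed here.

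Short motifs of factors active in endothelium were counted in the same 98 windows on both strands, as a description of their letters only. The shares of all 31365 windows are given beside them, but those include the promoters at gene ends and were richer in CpG, so they are unlike windows. An E-box, CAGCTG, was present in 28 windows (28.6%, against 16.3% of all windows), and the TEAD-type GGAATG in 23 (23.5%, against 14.6%). Among ETS-type sequences, AGGAAGT was present in 14 windows (14.3%, against 9.38%) and CCGGAA in 12 (12.2%, against 15.1%). These TEAD and ETS motifs share the letters GGAA, so that 1 place can match more than 1 of them. The FOX-type TGTTTAC and the KLF-type CCACACCC were each present in 7 windows (7.14%, against 3.71% and 3.57%), the AP-1 site TGANTCA in 6 (6.12%, against 7.85%) and the GATA-type AGATAAG in 5 (5.10%, against 3.04%). The SOX-type AACAATGG, the CREB site TGACGTCA, and the NRF1, CTCF and NFI motifs had 0 matches in 98 windows, which allows a share of up to 3.06%, against 1.02%, 1.83%, 4.66%, 0.0797% and 0.0383% of all windows. Windows on the other distal classes are the nearer comparison. CAGCTG was present in 21.0% of the 62 windows on lost primed regions, 19.4% of the 72 on regions primed in both and 23.8% of the 202 on regions active in both. GGAATG was present in 14, 18 and 43 of these windows, or 22.6%, 25% and 21.3% in the same order. AGGAAGT stood at 9.68%, 18.1% and 26.2%, TGANTCA at 14.5%, 13.9% and 9.90%, and CCGGAA at 12.9%, 2.78% and 8.91%. TGTTTAC stood at 3.23%, 1.39% and 6.93%, CCACACCC at 9.68%, 2.78% and 4.46%, and AGATAAG at 1.61%, 4.17% and 7.92%. AACAATGG was present in 1, 1 and 3 of these windows, and the CREB and NRF1 motifs each in 0, 0 and 1. Whole windows were searched, so a match can lie outside the region that met the window. Windows of 1 gene can overlap, so the 98 windows are not independent, which the limit of 3.06% does not allow for. These counts are small, and no difference between classes was tested.

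Annotated microRNA hairpins were met by 3 new primed regions. One region of 268 bp inside Smc4, a condensin gene, at chr3:69009713-69009980, covered all 64 bases of the Mir15b hairpin and 79 of the 95 bases of Mir16-2. Their 5′ arms are printed with bases 2 to 8, the seed that pairs with target transcripts, in capitals, because both carry the seed AGCAGCA.
mmu-miR-15b-5p: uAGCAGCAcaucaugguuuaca
mmu-miR-16-5p: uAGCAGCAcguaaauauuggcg

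The other hairpins were Mir130a, of which a region of 339 bp covered 16 of 64 bases, and Mir6989 inside Map4k2, a kinase gene, of which a region of 283 bp covered 45 of 65. The Mir15b region lay 4174 bp from the nearest WT H3K4me1 peak and 3448 bp from the nearest KO H3K27ac peak. Hairpins were met by 1 lost primed region, 1 region primed in both genotypes and 3 regions active in both.

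New primed regions were the second largest class among the distal H3K4me1 regions without H3K4me3 or H3K27me3. Of the 59665 merged regions, 49071 lay over 1000 bp from both ends of every protein-coding gene, and 38352 of those met no H3K4me3 and no H3K27me3 peak of either genotype. The new primed regions made up 22.8% of these 38352, and the 6074 lost primed regions made up 15.8%, a ratio of 1.44 (interval 1.39 to 1.49) that follows from the selecting marks themselves. Among regions with H3K4me1 in KO only, 8728 of 10023 lacked KO H3K27ac (87.1%), and among regions with H3K4me1 in WT only, 6074 of 7662 lacked WT H3K27ac (79.3%). By comparison, of the 20667 regions with H3K4me1 in both genotypes, 10059 were active in both and 5433 primed in both. A further 592 KO-only distal regions without KO H3K27ac were left out for another mark, most often KO H3K27me3 (402) or WT H3K27me3 (256). KO H3K4me3 was met by 202 of them and WT H3K4me3 by 71, and 1 region can count more than once.

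**Figure D1:**
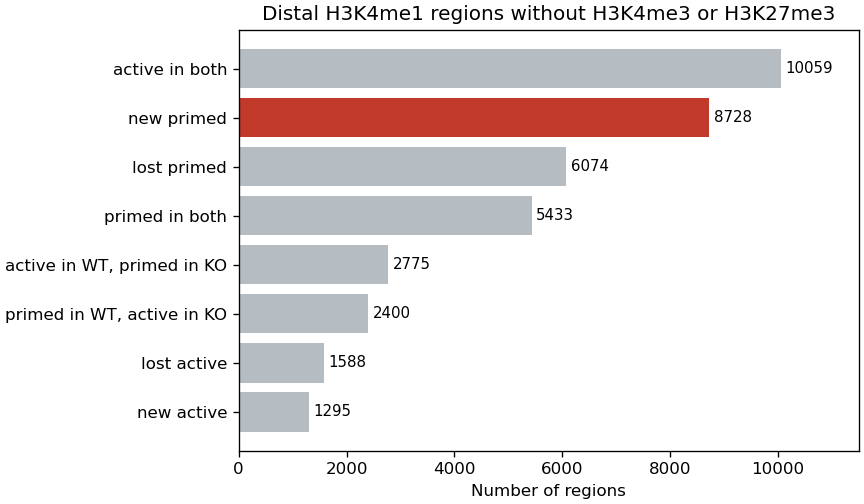
Bars give the number of distal H3K4me1 regions without H3K4me3 or H3K27me3 in each class of the H3K4me1 and H3K27ac lists of both genotypes. The 8728 new primed regions (red) are fewer than the 10059 regions active in both and more than the 6074 lost primed regions.

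The edges of the selection were close for some regions. The 3 regions nearest to the distance limit had 1000, 1002 and 1005 bases between themselves and a gene end, and the 3 nearest left out had 998, 997 and 997. A gap of at most 100 bp separated 249 new primed regions from a WT H3K4me1 peak. Conversely, 255 distal KO peaks overlapped WT H3K4me1 by at most 50 bp and so were left out.

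New primed regions were narrow. Their median width was 250 bp (interval 246 to 253), with quartiles of 178 and 366 bp and a range from 113 to 1445 bp, and together they covered 2.58 Mb. Lost primed regions were narrower still, with a median of 190 bp (187 to 193) and a range from 91 to 900 bp. Regions primed in both genotypes had a median of 458 bp and regions active in both 686 bp, where the merging of a WT and a KO peak also widens a region. At least 500 bp were reached by 10.8% of new primed, 2.32% of lost primed, 41.7% of primed in both and 78.4% of active in both. Under 200 bp lay 32.5% of new primed and 54.3% of lost primed regions. When peaks under 200 bp were left out of every list, 8141 new primed regions were found and the ratio of new to lost primed regions was 1.99. The smallest widths also differed between the H3K4me1 lists behind the classes, 113 bp for new and 91 bp for lost primed regions, and the whole KO list was wider than the whole WT list (medians of 461 and 384 bp). The part of this list-wide difference in the widths and in the number of new over lost primed regions was not tested.

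**Figure D2:**
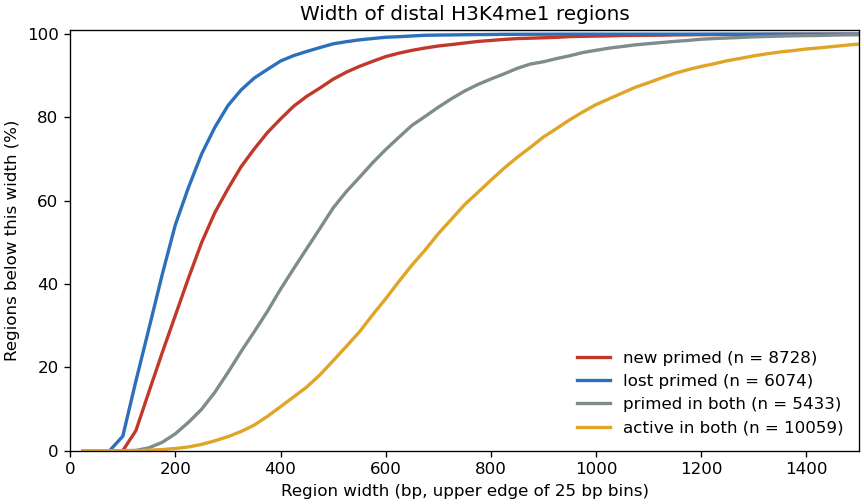
Lines give the percentage of regions of 4 distal classes (vertical axis) below a width in bp (horizontal axis). The line of new primed regions (median 250 bp) lies between that of lost primed regions (190 bp) and that of regions primed in both genotypes (458 bp).

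The widest new primed regions lay in or near genes of varied function. The widest, 1445 bp at chr2:32554871-32556315 inside Fam102a, was 14500 bp from the nearest WT H3K4me1 peak and 19395 bp from the nearest KO H3K27ac peak. The next was 1374 bp at chr17:86378259-86379632 inside Prkce, the gene of protein kinase C epsilon, 13289 bp from WT H3K4me1. The third, 1333 bp at chr6:7847236-7848568 inside C1galt1, which encodes the enzyme of core 1 O-glycans, was only 332 bp from a WT H3K4me1 peak. Regions inside Tspan9 (1276 bp), Dicer1, the gene of the microRNA-processing nuclease (1227 bp), and Lamc1, a laminin chain of basement membrane (1217 bp), followed. Outside genes, the widest were 7312 bp from Ube2d2a, which encodes a ubiquitin-conjugating enzyme (1316 bp), 29198 bp from Mgmt, a DNA repair gene (1308 bp), 16486 bp from Rab11fip4, a Rab11 effector gene (1297 bp), and 2305 bp from Skida1 (1216 bp). None of these 10 met a WT H3K27ac peak, and 8 of them were over 1000 bp from WT H3K4me1, the exceptions being the regions in C1galt1 and near Rab11fip4 (588 bp).

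The WT H3K27ac list was not itself used in the selection but is not independent of it. Of all KO H3K27ac peaks, 67.5% met a WT H3K27ac peak, and 63.5% of all WT H3K4me1 peaks lay on one. Leaving out KO H3K27ac and WT H3K4me1 therefore also leaves out many places with WT H3K27ac. Of the new primed regions, 1240 of 8728 (14.2%, interval 13.5 to 14.96) overlapped a WT H3K27ac peak, so that most had neither mark listed in WT. In the mirror comparison, 614 of 6074 lost primed regions (10.1%, 9.36 to 10.9) overlapped a KO H3K27ac peak. The order of these shares turned when equal numbers of the widest peaks of each mark were taken in both genotypes, with 7.37% of new primed regions on WT H3K27ac and 11.9% of lost primed regions on KO H3K27ac. With peaks under 200 bp left out of every list the shares were 10.6% and 10.4%. The WT H3K27ac list was also the longer of the 2. By bases covered, the shares were 7.50% and 7.35%. KO-only regions that did carry KO H3K27ac, called new active, met WT H3K27ac at 38.6%, and lost active regions, the mirror class, met KO H3K27ac at 34.6%.

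Wider new primed regions overlapped WT H3K27ac more often, while the share of their bases covered did not follow. The overlap was 312 of 2837 for regions under 200 bp, 13.5% for 200 to under 300 bp, 15.4% for 300 to under 500 bp and 23.0% (20.3 to 25.8) for 500 bp or more. The corresponding shares of bases were 8.03%, 8.14%, 7.17% and 6.91%. Lost primed regions on KO H3K27ac gave 8.40%, 10.7%, 13.3% and 22.7% (16.1 to 30.5) in the same width classes. The intervals of new and lost primed regions overlapped in each class except the narrowest (9.87 to 12.2 against 7.48 to 9.40), and a wider region has more bases in which an overlap of 1 bp can fall.

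**Figure D3:**
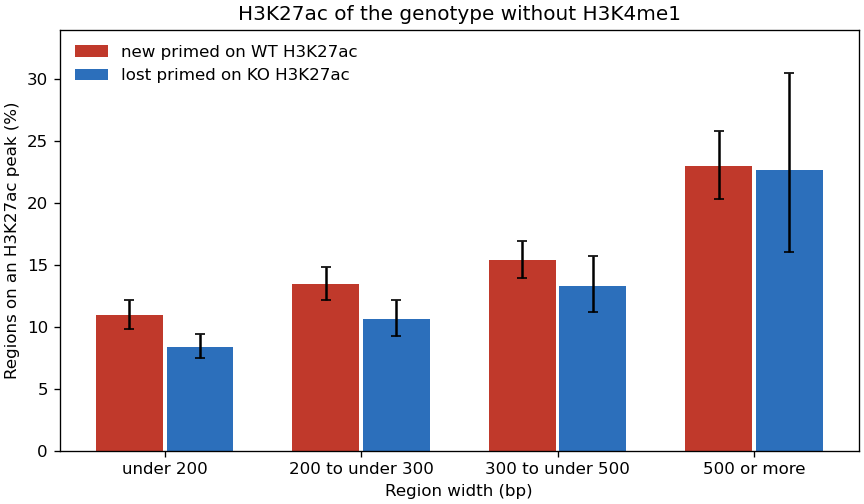
Bars give the percentage of regions that overlap an H3K27ac peak of the genotype without H3K4me1, by region width in bp, with exact 95% intervals as error bars. Among new primed regions (red) the share is 13.5% at 200 to under 300 bp and 23.0% at 500 bp or more, and among lost primed regions (blue) 10.7% and 22.7%.

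The WT H3K27ac peaks that lay on new primed regions were themselves narrow. They numbered 1251, with a median width of 197 bp, against 215 bp for the whole WT list. Of these, 46 (3.68%) met a KO H3K27ac peak, against 37.0% of the whole list. The selection allows no KO H3K27ac on the region, so only the part of a peak outside the region could meet one. In the mirror comparison, 5.55% of the KO H3K27ac peaks on lost primed regions met WT H3K27ac, against 67.5% of the whole KO list. The 5 widest new primed regions on WT H3K27ac were 43482 bp from Nid2, a basement membrane nidogen gene (1146 bp), inside Zeb2, a zinc finger repressor gene (1136 bp), inside Nxpe3 (1131 bp), inside Plcb4, a phospholipase C gene (1072 bp), and 463447 bp from Mki67, a proliferation marker gene (1045 bp). The Zeb2 region, at chr2:45088475-45089610, lay 416 bp from WT H3K4me1 and 13729 bp from KO H3K27ac. The region in Plcb4 lay 12894 bp from WT H3K4me1 and 62541 bp from KO H3K27ac.

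Most new primed regions lay inside protein-coding genes. The share was 67.0% (5849 regions, interval 66.0 to 68.0), against 60.2% of lost primed, 66.5% of primed in both, 57.5% of active in both and 60.9% of all distal regions. The gene table holds no exons, so introns and exons were not separated. Inside genes, the median distance to the nearer gene end was 23172 bp, and 68.6% of the new primed regions inside genes shared the gene with a region active in both genotypes, against 63.6% for lost primed regions and 67.4% (65.8 to 68.9) for regions primed in both. Among the 2879 regions outside protein-coding genes, the median gap to a gene end was 33179 bp, with 702 over 100 kb and 49 over 500 kb away. Long non-coding RNA genes alone held 655 regions (7.50%).

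New primed regions commonly lay within a few kb of H3K4me1 already listed in WT. The median gap to the nearest WT H3K4me1 peak was 2895 bp, with quartiles of 802.75 and 8878 bp, whereas lost primed regions lay a median of 5090 bp from KO H3K4me1. Gaps of at most 1000 bp were found for 29.0% of new primed regions, and 71.0% (interval 70.0 to 71.9) had no WT H3K4me1 peak within that distance. Over 10000 bp away were 22.5% of new primed and 33.7% of lost primed regions. The nearest WT H3K4me1 peak carried WT H3K27ac in 59.8% of cases, against 63.5% of all WT H3K4me1 peaks, and carried WT H3K4me3 in 15.6%, against 20.9%. To H3K27ac the median gap was 2124 bp in the longer WT list and 5146 bp in the KO list, where the selection keeps out overlaps.

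**Figure D4:**
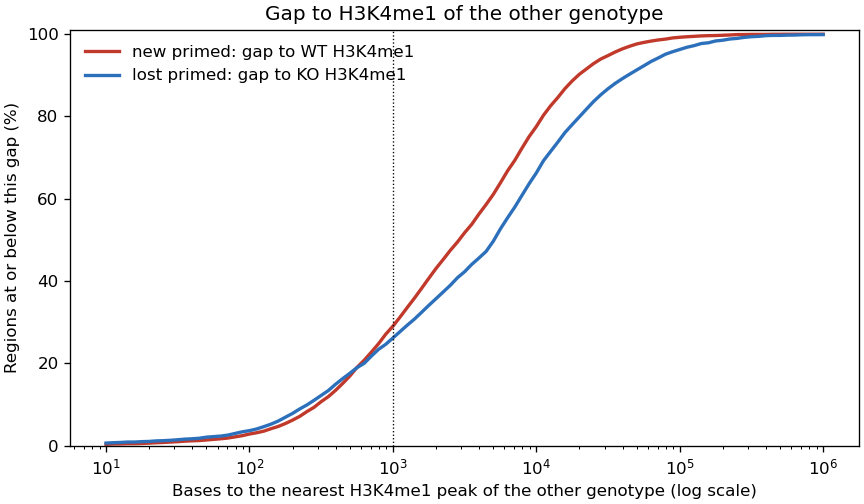
Lines give the percentage of regions (vertical axis) whose nearest H3K4me1 peak of the other genotype is at or below a number of bases away (horizontal axis, log scale), and the dotted line marks 1000 bp. At 1000 bp the lines stand at 29.0% for new primed and 26.2% for lost primed regions, and at 10000 bp at 77.5% and 66.3%.

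Some new primed regions stood in groups. With regions joined at gaps of up to 10 kb, 5964 (68.3%) stood alone, and 244 groups of 3 or more held 810 regions (9.28%). Among lost primed regions 53 such groups held 2.73%, and among regions primed in both genotypes 59 groups held 3.52%, in classes with fewer regions in all. The largest groups are named here because of their size, after their values were seen. In Usp6nl, the gene of a Rab GTPase-activating protein, 7 regions stood within 27781 bp, of which 4 met WT H3K27ac, together with 1 lost primed and 3 shared H3K4me1 regions. Near or in Kitl, which encodes the ligand of the receptor Kit, 6 stood within 22225 bp with 4 shared regions, and in Mgll, a monoacylglycerol lipase gene, 6 stood within 22506 bp. In Pik3cb, a phosphoinositide 3-kinase gene, 6 regions of 133 to 418 bp stood within 28537 bp with no lost primed and no shared H3K4me1 region between them. The tightest of these was in Prcd, a gene named for a retinal degeneration, where 6 regions of 121 to 405 bp stood within 2242 bp at chr11:116661272-116663513, also with no shared region and no WT H3K27ac. All gaps between these 6 were under 500 bp, so merging peaks within 500 bp joins them.

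At the level of genes, 2938 of 20665 protein-coding genes held at least 1 new primed region, 14.2% of the genes, and 2311 held at least 1 lost primed region, 11.2%. Both kinds were found in 1318 genes, and 1620 held new primed regions with no lost primed one. New primed regions outnumbered lost primed ones in 2206 genes and were fewer in 1226. A single new primed region was held by 1710 genes, 5 or more by 264 and 10 or more by 38, whereas 3 genes held 10 or more lost primed regions. With at least 5 of one kind and 0 of the other, 33 genes held only new primed and 3 only lost primed regions.

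The genes with the most new primed regions were long, and each also held lost primed regions. Tcf4, which encodes a basic helix-loop-helix transcription factor, held 18 new against 6 lost primed regions in 344539 bp, with 17 regions active in both genotypes. The 18 regions were 134 to 995 bp wide, 10 of them lay over 1000 bp from WT H3K4me1, and 2 met WT H3K27ac. Ncald, a neuronal calcium sensor gene, held 17 against 5, and 5 of the new ones met WT H3K27ac. Prkce held 15 against 8, and Ptprg, a receptor tyrosine phosphatase gene, 15 against 10. Nckap5 and Pde4d, which encodes a cyclic AMP phosphodiesterase, each held 15 against 3. Rapgef2, an exchange factor gene for Rap GTPases, held 14 against 5, Foxp1, a forkhead factor gene, 14 against 9, and Lrmda 14 against 6. The largest excess, 12 regions, was reached by Tcf4, Ncald, Nckap5 and Pde4d among others. In Ncald the 17 regions ranged from 144 to 966 bp, and 12 of them lay over 1000 bp from WT H3K4me1. Per length, Prcd had the highest density among genes with at least 4 new primed regions, 41.4 per 100 kb, followed by Sema7a, a semaphorin gene (21.5), Hjurp, a chaperone gene of centromeric histone (21.3), Rgmb, a BMP co-receptor gene (18.8), and Txndc5, a protein disulfide isomerase gene (17.5). The Prcd value rests on neighbouring regions with gaps under 500 bp. Merging peaks at that distance leaves this gene with fewer than 4 regions.

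Genes that held new primed regions mostly had active marks at an end. A WT H3K27ac peak lay within 1000 bp of either end in 76.4% of the 2938 genes, against 51.5% of all genes, 59.6% of genes of at least 10 kb, 72.1% of genes with lost primed regions and 74.98% of genes with regions primed in both genotypes. H3K27ac and H3K4me3 at an end in both genotypes were found in 64.8%, against 41.6% of all genes, 49.1% of genes of at least 10 kb, 61.3% of genes with lost primed regions and 63.8% of genes with regions primed in both. No listed mark in either genotype was found in 9.87%, against 30.3%, 21.5%, 11.99% and 10.3% of the same groups. Genes with new primed regions thus stood close to those with the other primed classes. The median length was 75.1 kb for genes with new primed regions and 17.5 kb for all genes, and length was not matched. H3K27me3 lay at an end in 47.3% of these genes in WT and 51.3% in KO, against 37.9% and 42.7% of all genes and 47.4% and 52.2% of genes with lost primed regions.

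Dnmt3a itself held 5 new and 0 lost primed regions in 10 distal regions without other marks. They lay at chr12:3815377-3815770, chr12:3823219-3823426, chr12:3870946-3871160, chr12:3871216-3871336 and chr12:3871761-3871972. The second and the third met WT H3K27ac, and the last 3 lay between 3870946 and 3871972. Gaps between these last 3 were under 500 bp, so merging peaks within 500 bp joins them into 1 region. These lists leave the deleted part of Dnmt3a unknown and are no check of the genotype labels.

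Across 22 lists of genes of vascular and other function, 147 of 461 different genes held a new primed region (31.9%), against 14.2% of all protein-coding genes. The endothelial lists also had more distal H3K4me1 regions of any class per Mb (27.1 in the lymphatic to 94.8 in the pan-endothelial list) than all genes (24.1), so this share is not to be read as particular to new primed regions. The counts below are regions inside the genes, and over all protein-coding genes there were 5991 new against 3709 lost primed regions, where a region in overlapping genes counts for each, or 5.98 against 3.70 per Mb of gene. New primed regions were 24.8% of all distal H3K4me1 regions without other marks in all genes. Lists overlap in members, differ in gene length and were not tested, and a list's share of distal regions separates the new primed regions from how much H3K4me1 its genes carry. Genes named from a list, up to 8, are those with the most new primed regions. Their counts of new against lost primed regions are thus set in part by this choice. Other genes enter a list's totals only.

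**Figure D5:**
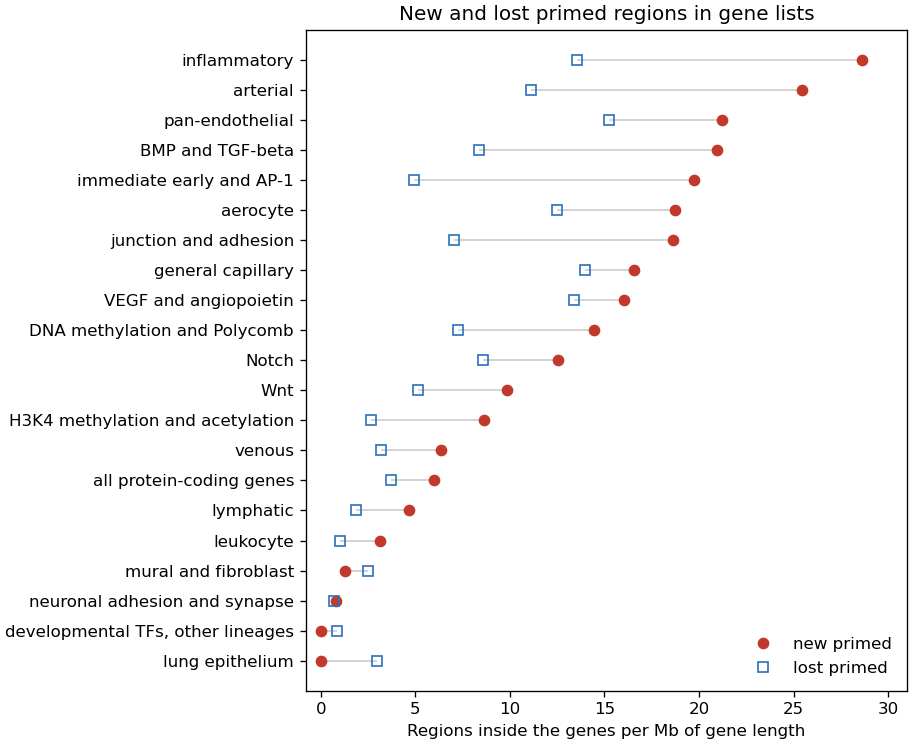
Points give the number of new primed (filled red) and lost primed (open blue) regions inside the genes of each list shown, per Mb of gene length. New primed regions stand at 28.6 per Mb in the inflammatory list, 21.2 in the pan-endothelial list, 5.98 over all protein-coding genes and 0 in the lung epithelium list. Distal H3K4me1 regions of any class without other marks, not drawn, stood at 79.8, 94.8, 24.1 and 14.8 per Mb in the same order.

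BMP and TGF-beta genes, which govern vessel stability and are mutated in hereditary vascular disease, held 50 new against 20 lost primed regions. Of 30 genes, 20 held a new primed region and 13 of these held no lost one, and new primed regions were 32.3% (interval 24.98 to 40.2) of the list's distal regions. The lower bound of that interval stood close to the 24.8% of all genes. Among ligand-handling and co-receptor genes, Ltbp1, which tethers latent TGF-beta, held 7 against 4, and Tgfbr3, the betaglycan gene, 6 against 5. Among type I receptors, Acvr1, a BMP receptor gene, held 5 against 0 and Tgfbr1 3 against 0. The regions in Acvr1 were 145 to 407 bp wide and 389 to 11594 bp from WT H3K4me1, and none met WT H3K27ac. In Tgfbr1 the 3 regions lay 14348 to 28604 bp from WT H3K4me1, and these were the only distal H3K4me1 regions without other marks in that gene. Acvr2a, a type II receptor gene, held 2 against 2. Of the Smad genes, which carry the signal to the nucleus, Smad1 and Smad3 each held 3 against 0, and Smad6, an inhibitory Smad gene, held 5 against 0. In Smad6 the regions were 230 to 447 bp wide, 3 of 5 lay over 1000 bp from WT H3K4me1, and those at chr9:63971639-63971964 and chr9:64009414-64009695 met WT H3K27ac.

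Genes that mark all endothelium held 32 new against 23 lost primed regions, in 14 of 29 genes, and 22.4% (15.8 to 30.1) of their distal regions were new primed. That share was near the 24.8% of all genes, while the density of all distal regions was 94.8 per Mb against 24.1. Ets1, an ETS factor gene, held 5 against 5, Flt1, a VEGF receptor gene, 5 against 2, Fli1, another ETS factor gene, 4 against 1, and Erg 2 against 3. Pecam1, the gene of the adhesion molecule CD31, held 4 against 1. Cdh5, the gene of VE-cadherin, held 3 against 1, and its 3 regions all lay 283 to 659 bp from WT H3K4me1. Of the lung capillary lists, the general capillary genes held 19 against 16 in 8 of 15 genes. They were led by Cadm1 (5 against 4) and Nrp1, a co-receptor gene for VEGF and semaphorins (5 against 3). The aerocyte genes held 9 against 6 in 5 of 15, and 5 of these 9 were the same regions in Nrp1.

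Arterial genes held 16 new against 7 lost primed regions, 34.8% (21.4 to 50.2) of 46 distal regions, in 7 of 18 genes. Efnb2, the ephrin that marks arteries, held 5 against 1, of which 2 met WT H3K27ac at chr8:8633639-8634013 and chr8:8649196-8649636. Nrp1 is also on this list, and Unc5b, a netrin receptor gene, held 2 against 0. A single new and no lost primed region was held by Gja5 (connexin 40), Jag2, Notch1 and Sema3g. Venous genes held 4 against 2 in 4 of 13 genes, with 14.3% (4.03 to 32.7) of distal regions new primed, among them 1 in Ephb4, the receptor gene for Efnb2. Lymphatic genes held 5 against 2 in 4 of 12 genes, with 17.2% (5.85 to 35.8), among them 1 in Prox1 and 1 in Lyve1. The intervals of the arterial and venous shares overlapped. Those of the arterial, venous and lymphatic shares each held the 24.8% of all genes.

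In the VEGF, Notch and Wnt lists, too, the new primed share of distal regions had intervals that held the 24.8% of all genes. The VEGF and angiopoietin list held 18 new against 15 lost primed regions in 7 of 14 genes, with a share of 22.2% (13.7 to 32.8). Flt1 (5 against 2) and Nrp1 (5 against 3) are also on this list and count in these totals. Angpt2, the gene of a Tie2 ligand, held 3 against 1, Tek, the Tie2 gene, 1 against 3, and Kdr, the main VEGF receptor gene, 1 against 1. Notch genes held 19 against 13 in 7 of 22, a share of 21.6% (13.5 to 31.6), mostly in the coactivators Maml3 (8 against 8) and Maml2 (6 against 2). Wnt genes held 23 against 12 in 12 of 36, a share of 29.5% (19.7 to 40.9), with 5 against 1 in Tcf7l1 and 3 against 1 in Tcf7l2, both TCF factor genes, and 4 against 3 in the co-receptor gene Lrp6.

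Junction and adhesion genes held 29 new against 11 lost primed regions, in 13 of 21 genes, or 23.0% of distal regions. Tjp1, the gene of the tight junction scaffold ZO-1, held 6 against 0, of which 4 lay over 1000 bp from WT H3K4me1, next to 15 regions active in both genotypes. Ctnnd1 and Ctnna1, catenin genes of adherens junctions, held 3 and 2 with no lost primed region.

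Inflammatory genes held 19 new against 9 lost primed regions in 8 of 23 genes, and 35.8% (23.1 to 50.2) of their distal regions were new primed. Nfkb1, the gene of an NF-kappaB subunit, held 8 of the 19 against 1 lost primed region, with widths from 165 to 744 bp, and the widest lay at chr3:135688009-135688752. The other genes of this list held at most 2 each, among them Il1r1 (2 against 1) and Tnfrsf1a (2 against 1). Immediate early and AP-1 genes are short and held 4 against 1 in 3 of 21 genes, of which 2 lay in Klf6. Among DNA methylation and Polycomb genes, 16 stood against 8 in 7 of 21 genes. New primed regions were 33.3% (20.4 to 48.4) of that list's distal regions. Besides Dnmt3a, Mbd2, a reader of methylated DNA, held 4 against 0, Ezh2, the Polycomb methyltransferase gene, 2 against 1, and Tet2, a demethylation enzyme gene, 2 against 2. Genes of H3K4 methylation and of histone acetylation held 23 against 7 in 9 of 25, among them the deacetylase gene Hdac9 (5 against 2). Their new primed share of distal regions was 27.7% (18.4 to 38.6). The interval of each list in this paragraph, the inflammatory list included, held the 24.8% of all genes.

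Genes of other cell types held few new primed regions, and few distal H3K4me1 regions of any class. Lung epithelial genes held 0 in 18 genes and developmental transcription factors of other lineages 0 in 42, with 5 distal regions without other marks in each list. Mural and fibroblast genes held 1, in Rgs5, of 5 distal regions among 20 genes, or 6.31 distal regions per Mb against 24.1 over all genes. Leukocyte genes held 3 of 6 distal regions (interval 11.8 to 88.2%), with 2 in Csf1r, the receptor gene for macrophage growth factor, and 1 in Ikzf1, among 19 genes. Neuronal adhesion and synapse genes held 31 against 26 in 13 of 32 genes, but these genes are very long, so that the density was 0.820 per Mb against 5.98 over all genes. All distal regions of that list were also sparse, at 4.02 per Mb, and the new primed share of 20.4% (14.3 to 27.7) had an interval that held the 24.8% of all genes. In that list Ptprd held 5 against 0 and Cntnap2 3 against 0, while Nrg1 held 4 against 5. Short housekeeping genes, which are not of another cell type, held 3 against 4 in 3 of 26 genes. Their density was not low, at 8.19 new primed regions per Mb against 5.98 over all genes. All distal regions of that list stood at 24.6 per Mb against 24.1. The new primed share was 33.3% of only 9 distal regions, with an interval of 7.49 to 70.1 that held the 24.8% of all genes.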

How the data were processed

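The deposited files are 1 peak list per mark and genotype. They hold positions in bp on mm10 and peak widths, whose unit class is other, used as the authors deposited them, with no height, score or p-value. The submitters' processing notes name the tools MACS2 2.1.2.1, Bowtie2 2.2.6, deepTools 3.1.1, SAMtools, cutadapt 1.14 and Trim Galore 0.4.4, and builds mm10 and R64. What each did, the peak threshold and any pooling of samples are not given in these sources.

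Overlaps of at least 1 bp were computed in Python 3.11.15 with pandas 2.3.3, numpy 2.4.6 and scipy 1.17.1 (figures with matplotlib 3.10.9). The code was tested on simulated data and by exhaustive search on 1 chromosome. The gene set was RefSeq's 20665 protein-coding genes of GRCm38.p6 on chromosomes 1 to 19. The members, gene lists and comparisons were chosen with earlier results of these data known. Named genes were those of the 10 widest regions, the 10 with the most regions, the 5 densest, the 5 with the largest excess over lost primed regions, up to 8 holders a list, those of the 5 widest regions on WT H3K27ac, and Dnmt3a. The holders of a list were taken by most new primed regions first and then by alphabet. Gene models named Gm or Rik were skipped, and other named genes are said to be chosen after their values were seen. Sequences come from RefSeq tables of transcript starts and microRNAs. No genome was used, so the planned CpG content and centre sequences of regions are not analysed here, nor are H3K9me3 and the sex chromosomes. The results of 1 gene list and of a few named genes are not reported here.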

Additional observations from a re-analysis of the deposited data

How the results depend on the processing

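No paired analysis was possible because the lists hold no values per sample, and for the same reason no replicate could be left out. Of 81 values of 9 results under 9 alternatives, 60 stayed within the counting interval (within 1.5 times for counts), and new primed regions outnumbered lost primed ones under all 9. With an overlap of at least 50% of the shorter interval, 12.2% of new primed regions were on WT H3K27ac. At 5000 bp from gene ends the ratio of new to lost primed regions was 1.37, and 27.1% of list genes held a new primed region, against 31.9% in the main setting. Without peaks under 200 bp the ratio was 1.99, the share on WT H3K27ac 10.6%, the median width 332 bp, the share with no WT H3K4me1 peak within 1000 bp 78.5%, and the share of genes holding new primed regions with WT H3K27ac at an end 71.2%. With equal numbers of the widest peaks, 7.37% of new primed regions were on WT H3K27ac, and 71.5% of the genes holding them had it at an end. Requiring no WT H3K4me1 within 1000 bp gave a ratio of 1.38, a share on WT H3K27ac of 13.2%, 26.9% of list genes, 6 of the 10 genes with the most regions, and by construction 100% of regions without WT H3K4me1 within that distance. Requiring no KO H3K27ac within 1000 bp gave a ratio of 1.49 and 81.9% without WT H3K4me1 within 1000 bp. Merging peaks within 500 bp gave a median width of 262 bp, 87.8% without WT H3K4me1 within 1000 bp, and 6 of the 10 genes. Counting gene ends of every biotype, an alternative added after seeing the data, placed 68.3% of regions inside protein-coding genes. The marks at gene ends were also run under these alternatives after seeing the data. The cause of these shifts was not tested, beyond what each alternative removes by construction. Depth is unknown, so a region missing from a list may lie just below its threshold.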

Other observations

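New primed regions were found on every analysed chromosome in similar proportion. Their share of the distal H3K4me1 regions without other marks ran from 20.2% on chromosome 18 (interval 18.3 to 22.3) to 24.5% on chromosome 19 (21.9 to 27.2), and the number of new over lost primed regions ran from 1.24 on chromosome 18 to 1.68 on chromosome 17.

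Among the 33 genes with at least 5 new and 0 lost primed regions, singled out after their values were seen, were Peli2, Pebp4, Slc10a7, Abcc4 and Dnm3 with 7 each. Several others have known roles in vessels or in signalling. Wwtr1, the gene of the YAP paralog TAZ, held 6 new primed regions, of which 1 met WT H3K27ac, and Gna12, a G protein subunit gene, held 6, of which 0 did. Nfatc1, a calcium-responsive transcription factor gene, held 6 in 15 distal regions without other marks.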
